A study of Mus musculus with 12 samples.

Results

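The circadian clock genes described here are 10 genes chosen by symbol: Bhlhe40, Bhlhe41, Per1, Per2, Per3, Cry1, Cry2, Arntl, Clock and Nr1d2. All 10 were found in each of the 5 deposited comparison tables, which together hold 16399 gene symbols. RNA had been sequenced after 6 days of treatment from dissociated tumours of MC38, a mouse colon carcinoma line, labelled with the strain C57BL/6 albino. Fragments of 40 to 100 µm were held in collagen inside microfluidic chips, so the samples can hold host cells as well as tumour cells. The 12 samples formed 4 groups of 3. The first group received a control IgG (10 µg/mL) and the second an antibody against PD-1, a receptor on T cells (aPD-1, 10 µg/mL). The third received the same PD-1 antibody with a CD8 antibody (aPD-1+CD8, 10 µg/mL of each), so it held more antibody in all, and the fourth interferon-gamma protein (IFNg, 100 ng/mL). No antibody is named for the IFNg wells and no control IgG for the aPD-1 wells, so IFNg and antibody content cannot be told apart in the IFNg comparisons. The labels do not tie the 3 samples of a group to separate animals or chips. The p-values therefore cover the spread among these samples alone, and that spread may be technical.

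The mammalian clock is a loop of transcription factors. CLOCK and BMAL1, the product of Arntl, bind E-box sequences and switch on the Per and Cry genes, whose proteins return to the nucleus and repress CLOCK and BMAL1. BHLHE40 and BHLHE41 (DEC1 and DEC2) are repressors that bind the same E-boxes, and NR1D2 (REV-ERB-beta) represses Arntl through ROR elements. Per1 and Bhlhe40 also answer to signals from outside the clock: Per1 is a target of cAMP and CREB and of glucocorticoids, and Bhlhe40 is known as a target of hypoxia and of many growth and stress signals. A tissue sampled at 1 time, as here, gives levels but no rhythm, and the hour of collection was not given in the sources used here.

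Of the 10 clock genes, 3 changed in at least 1 comparison and 7 in none. Bhlhe40 was the member with the widest range, Bhlhe41 and Per1 moved less, and Per2, Per3, Cry1, Cry2, Arntl, Clock and Nr1d2 passed the test nowhere. A gene is called changed here when its adjusted p in the authors' deposited table, from DESeq2's Wald test with Benjamini-Hochberg adjustment over all genes of the table, was under 0.05. The deposited log2 fold changes appear shrunken toward 0, to a degree that differs between the tables, and can understate changes.

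**Figure D1:**
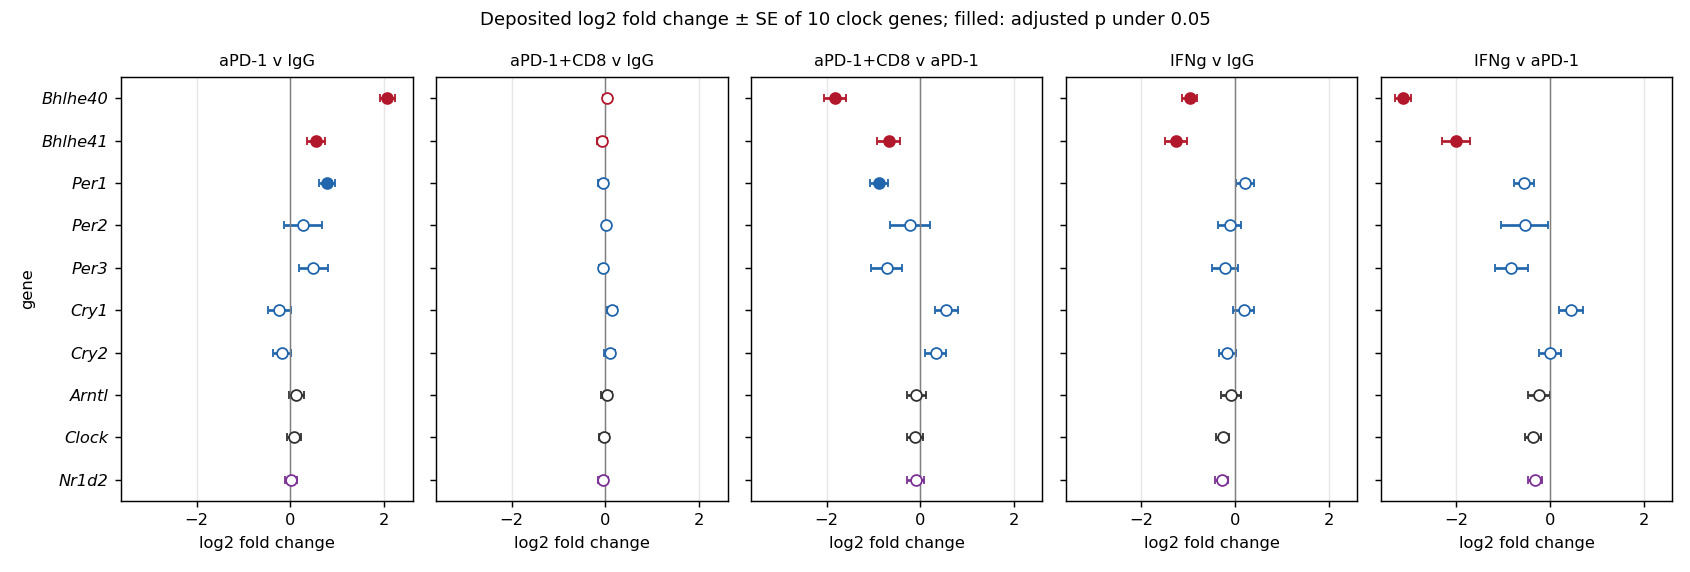
Log2 fold change (x axis) with its standard error (bars) of each clock gene (y axis) in the 5 deposited comparisons, with the first named group over the second. Filled points passed an adjusted p of 0.05: Bhlhe40 stands at 2.06 in aPD-1 v IgG and at -3.14 in IFNg v aPD-1, while Arntl, Clock and Nr1d2 stay within 0.37 of 0 in all 5 panels. Red marks the E-box repressors, blue the Per and Cry genes, black Arntl and Clock, purple Nr1d2.

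The tables give no value for single samples, only a mean normalized count over both groups of a comparison. Since 3 tables pair the IgG, aPD-1 and aPD-1+CD8 groups with each other, the mean of each group can be solved from their 3 means, once the tables are put on 1 scale, and the IFNg mean follows from a further table. These solved levels are in normalized counts on the scale of the aPD-1+CD8 v aPD-1 table, carry no error, and are not corrected for gene length, so they are compared within a gene only. The IFNg level solved from IFNg v IgG and from IFNg v aPD-1 differed by a median of 0.687% over 5706 well counted genes and by at most 6.11% over the clock genes. The direction between solved levels matched that of the deposited fold change in 49 of 50 cases.

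Bhlhe40, an E-box repressor, was the clock gene that responded most to PD-1 antibody. Its solved level was 647 in IgG, 2926 in aPD-1, 735 in aPD-1+CD8 and 320 in IFNg. The aPD-1 group is thus alone at the top, IgG and aPD-1+CD8 lie close together, and IFNg lies lowest, 9.15 times under the aPD-1 level. With aPD-1 v IgG Bhlhe40 rose by 2.06 ± 0.16 (SE) on the log2 scale in the authors' deposited table, a 4.17-fold increase (adjusted p = 5.4e-35). Its Wald score ranked 27 by size among the 12024 genes tested there.

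A rise of Bhlhe40 was not detected where the CD8 antibody was present as well. It was lower in aPD-1+CD8 than in aPD-1 by a log2 change of -1.82 ± 0.24 (adjusted p = 4.7e-12) in the authors' deposited table, and it ranked 110 of 11560. Against IgG, aPD-1+CD8 gave 0.03 ± 0.09 (adjusted p = 0.9998) in the authors' deposited table, whose fold changes are the most strongly shrunken of the 5. The solved levels, which are not shrunken, gave a log2 ratio of 0.18 for the same pair. The comparisons with aPD-1 share its 3 samples, so the rise over IgG and the fall with the CD8 antibody are not independent of each other.

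Interferon-gamma moved Bhlhe40 the other way from PD-1 antibody. With IFNg it fell against IgG by 0.97 ± 0.17 on the log2 scale (adjusted p = 5.4e-07) in the authors' deposited table, which is 1.97-fold. Against aPD-1 the difference was -3.14 ± 0.17 (adjusted p = 5.7e-73) in the authors' deposited table, 8.84-fold lower, and Bhlhe40 ranked 10 of the 12260 genes tested. That table compares both treatments directly, so it tests the difference between them. Whether IFNg and aPD-1+CD8 differ in Bhlhe40 was not tested, since no deposited table pairs them.

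Bhlhe41, the closest relative of Bhlhe40 and also an E-box repressor, had the same order at its ends. Its solved level was 259 in IgG, 393 in aPD-1, 234 in aPD-1+CD8 and 86.4 in IFNg. The largest step was the drop with IFNg, not the rise with aPD-1. IFNg lowered it by -1.26 ± 0.23 against IgG (log2, adjusted p = 4.5e-06) and by -2.01 ± 0.29 against aPD-1 (adjusted p = 3.1e-10) in the authors' deposited tables. The unshrunken ratio of the solved levels was -1.58 for IFNg v IgG.

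The rise of Bhlhe41 with PD-1 antibody was small and near the threshold. It was 0.55 ± 0.19 in log2 (adjusted p = 0.0246) for aPD-1 v IgG in the authors' deposited table, and aPD-1+CD8 v aPD-1 gave -0.68 ± 0.24 (adjusted p = 0.0377) in the authors' deposited table. Both calls ended when the Wald scores were set against an empirical null, a null distribution as wide as the scores of all genes. The adjusted p was then 0.193 and 0.183, the highest over the alternative settings, which reached down to 0.0204 and 0.0339. Of the exonic bases of Bhlhe41 19.0% overlap an antisense gene, Gm43909, in the GENCODE M21 annotation, and 2.51% of those of Bhlhe40 overlap the antisense 0610040F04Rik. The same holds for 4.67% of Cry2 with D930015M05Rik and 0.439% of Arntl with Gm45355. Of these antisense genes only 0610040F04Rik is among the deposited gene symbols, and the annotation is of GRCm38, another build than the mm9 of the deposited comparisons. Whether counting used strand was not given in the sources used here, so reads of these pairs cannot be told apart.

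Per1, the Period gene most responsive to outside signals, rose with PD-1 antibody and not detectably with interferon-gamma. Its solved level was 165 in IgG, 296 in aPD-1, 154 in aPD-1+CD8 and 199 in IFNg. The aPD-1 group stands above the other three, which lie within a range of 154 to 199. The log2 change was 0.78 ± 0.16 in aPD-1 v IgG (adjusted p = 3.4e-05) and -0.89 ± 0.19 in aPD-1+CD8 v aPD-1 (adjusted p = 9.9e-05) in the authors' deposited tables. IFNg v IgG gave 0.21 ± 0.19 (adjusted p = 0.800), with a 95% interval from -0.16 to 0.59, in the authors' deposited table.

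The direct comparison of IFNg with aPD-1 left Per1 at the edge of the test. The value was -0.56 ± 0.21 (adjusted p = 0.0533) in the authors' deposited table. The adjusted p over the alternatives ranged from 0.0465, when genes with a mean count under 10 were left out of the adjustment, to 0.231 with the empirical null. A difference between the effects of IFNg and aPD-1 on Per1 is therefore not established here, although 1 passed against IgG and the other did not.

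The promoters of the members are shown where they hold a clock element, because Bhlhe41 and Per1 both rose with PD-1 antibody and share the E-box that the BHLHE40 and BHLHE41 proteins and CLOCK-BMAL1 bind. RefSeq windows of 250 bases before a start site (GRCm38.p6, another build than the mm9 of the tables, matched by symbol) were on hand for 8 of the 10 genes, in 12 windows. Bhlhe40 and Per2 were not matched. The sequences run 5′ to 3′ on the gene's strand and end at the base before the start, with the E-box or D-box in capitals.
Bhlhe41 (chr6:145865421-145865670, - strand): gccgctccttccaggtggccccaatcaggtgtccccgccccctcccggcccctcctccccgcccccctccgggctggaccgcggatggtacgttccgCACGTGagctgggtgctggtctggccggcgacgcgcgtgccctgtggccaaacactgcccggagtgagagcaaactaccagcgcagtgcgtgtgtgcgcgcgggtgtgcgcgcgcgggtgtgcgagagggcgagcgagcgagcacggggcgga
Per1 (chr11:69098699-69098948, + strand): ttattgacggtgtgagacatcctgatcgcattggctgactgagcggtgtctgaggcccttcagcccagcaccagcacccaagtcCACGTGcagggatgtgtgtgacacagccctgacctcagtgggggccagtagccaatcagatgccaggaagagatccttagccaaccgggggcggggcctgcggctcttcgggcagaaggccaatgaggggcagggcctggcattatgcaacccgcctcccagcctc
Cry1 (chr10:85185055-85185304, - strand): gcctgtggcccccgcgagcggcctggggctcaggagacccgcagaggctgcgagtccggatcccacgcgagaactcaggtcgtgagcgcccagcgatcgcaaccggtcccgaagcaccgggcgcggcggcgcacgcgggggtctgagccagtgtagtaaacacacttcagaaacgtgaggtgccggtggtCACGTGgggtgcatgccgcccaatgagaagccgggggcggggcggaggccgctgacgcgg
Per3 (chr4:151044666-151044915, - strand): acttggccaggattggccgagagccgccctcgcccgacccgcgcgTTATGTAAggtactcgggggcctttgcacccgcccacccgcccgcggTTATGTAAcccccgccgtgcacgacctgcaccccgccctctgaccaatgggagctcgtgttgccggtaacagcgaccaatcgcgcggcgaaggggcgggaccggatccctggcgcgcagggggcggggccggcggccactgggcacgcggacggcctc
The E-box CACGTG was found in 3 of the 12 windows, those of Bhlhe41, Per1 and Cry1, against 6.02% of all 32851 RefSeq windows of that length. Per1 has 2 windows, and the second, of another start, did not hold it. It begins 153 bases before the start in Bhlhe41, 166 in Per1 and 60 in Cry1. Cry1 carries the same 6 letters and did not pass the test in any comparison. The D-box TTATGTAA (or TTACATAA on the other strand) was found in the Per3 window alone, 205 and 158 bases before the start, and in 0.819% of all windows. The CRE TGACGTCA and the ROR element TAGGTCA (or TGACCTA) had no match in the members' windows, against 1.55% and 2.23% of all windows. A match of letters shows neither binding nor a cause, and the absence of one speaks only of these bases.

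Per2 and Per3, the other Period genes, did not pass in any comparison. The solved levels of Per3 were 26.6 in IgG, 41.4 in aPD-1, 22.4 in aPD-1+CD8 and 21.0 in IFNg, the same leading group as for Per1. Its log2 change was 0.49 ± 0.31 (adjusted p = 0.311) in aPD-1 v IgG, -0.72 ± 0.33 (adjusted p = 0.136) in aPD-1+CD8 v aPD-1 and -0.83 ± 0.36 (adjusted p = 0.107) in IFNg v aPD-1 in the authors' deposited tables. The counts of Per2 were too low to read: its mean normalized count was between 6.82 and 9.62 in the authors' deposited tables, and its 95% interval in aPD-1 v IgG ran from -0.52 to 1.07. That interval belongs to a shrunken estimate and is not a limit of detection, so larger changes of Per2 may also have gone undetected. The ratio of its solved levels for the same pair was 0.51 in log2, beside a deposited 0.27.

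**Figure D2:**
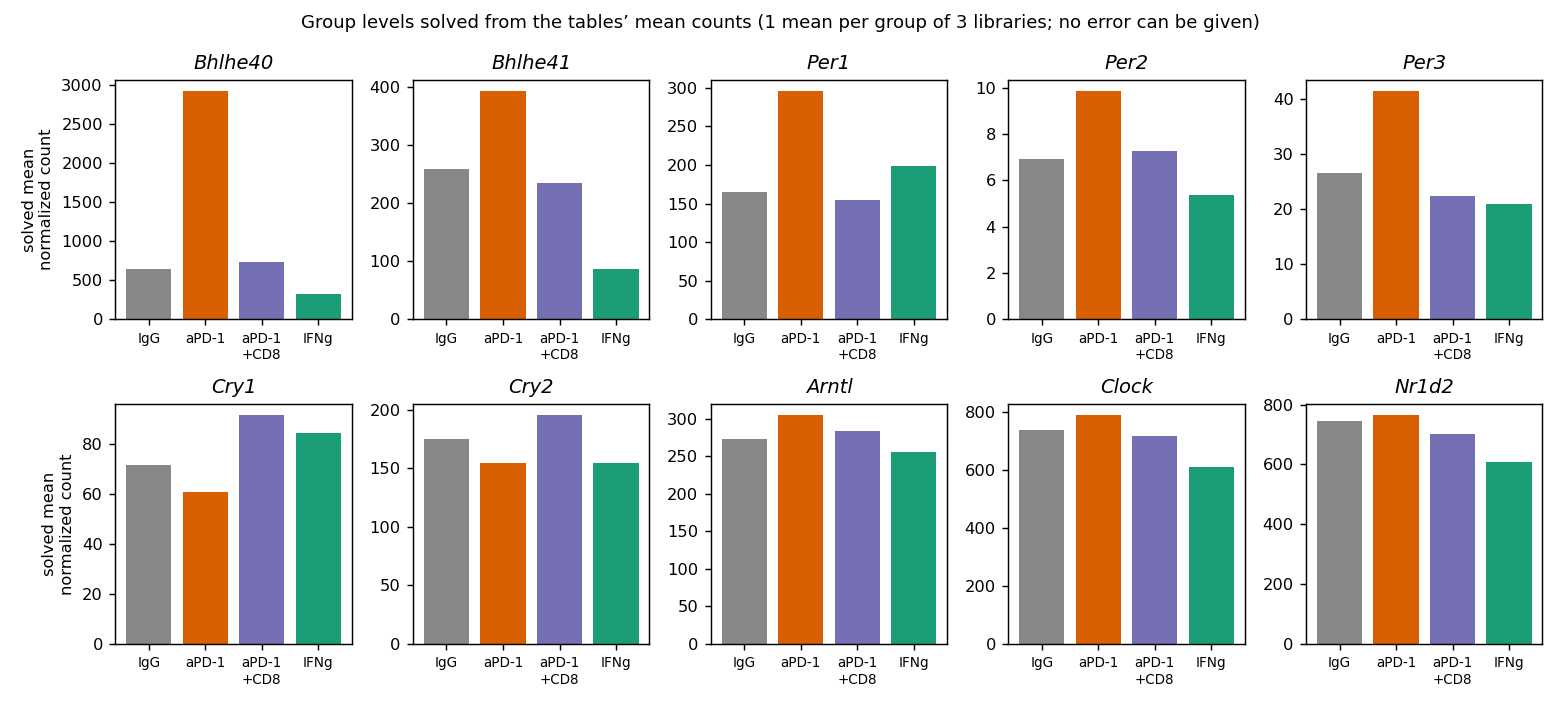
Solved mean normalized count (y axis, starting at 0, own scale for each gene) of the 10 clock genes in the IgG, aPD-1, aPD-1+CD8 and IFNg groups. Each bar is 1 mean for a group of 3 libraries, with no error available; Bhlhe40, Bhlhe41, Per1, Per2, Per3 as well as Arntl, Clock and Nr1d2 have their highest bar in aPD-1, and Cry1 has its lowest bar there.

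The cryptochromes, which carry the repressor arm of the loop together with the PER proteins, did not pass in any comparison. The solved levels of Cry1 were 71.5 in IgG, 60.6 in aPD-1, 91.2 in aPD-1+CD8 and 84.2 in IFNg. Cry1 was at -0.24 ± 0.25 (adjusted p = 0.602) in aPD-1 v IgG and at 0.55 ± 0.25 (adjusted p = 0.124) in aPD-1+CD8 v aPD-1 in the authors' deposited tables. Cry2 had solved levels of 175 in IgG, 155 in aPD-1, 195 in aPD-1+CD8 and 154 in IFNg, a range of 1.26 times. It was at -0.18 ± 0.19 (adjusted p = 0.596) in aPD-1 v IgG in the authors' deposited table, and at -0.01 ± 0.23 (adjusted p = 0.988) in IFNg v aPD-1, where the solved ratio has the opposite sign at 0.0041.

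The activators of the loop varied little. Arntl, which encodes BMAL1, had solved levels of 273 in IgG, 305 in aPD-1, 284 in aPD-1+CD8 and 256 in IFNg, 1.19 times from lowest to highest. Clock had 736 in IgG, 788 in aPD-1, 717 in aPD-1+CD8 and 608 in IFNg, 1.30 times from lowest to highest. For aPD-1 v IgG, Arntl was at 0.12 ± 0.17 (adjusted p = 0.698) and Clock at 0.07 ± 0.15 (adjusted p = 0.830) in the authors' deposited table. The 95% intervals there ran from -0.20 to 0.45 for Arntl and from -0.22 to 0.36 for Clock. They do not cover a doubling or a halving, but they belong to shrunken estimates and are not a limit of detection.

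Nr1d2, the REV-ERB-beta repressor of Arntl, had a low spread in the antibody groups. Its solved levels were 744 in IgG, 763 in aPD-1, 703 in aPD-1+CD8 and 607 in IFNg. It was at 0.01 ± 0.13 (adjusted p = 0.980) in aPD-1 v IgG, with a 95% interval from -0.24 to 0.26, in the authors' deposited table. Under IFNg against IgG, Nr1d2 was at -0.29 ± 0.13 and Clock at -0.27 ± 0.14 in the authors' deposited table, with unadjusted p of 0.0238 and 0.0541. Neither passed over all genes (adjusted p = 0.280 and 0.443).

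The counts of clock genes called are small and are set here against all genes. In aPD-1 v IgG 3 of the 10 rose and 0 fell, where 18.5% of the 12024 genes tested changed and 8.5% rose. In aPD-1+CD8 v aPD-1 3 of 10 were lower, against 14.8% of genes changed and 6.94% lower. With IFNg v IgG 2 of 10 fell, against 4.1% changed and 1.38% lower, and in IFNg v aPD-1 2 of 10 were lower, against 15.5% changed and 7.13% lower. In aPD-1+CD8 v IgG 0 of 10 and 0% of the 15304 genes tested passed with DESeq2. At an unadjusted p under 0.05 that table had 0 clock genes and 57 genes in all, 0.372% of those with a p. Where nothing changes, the threshold of 0.05 alone would pass a larger share. The fold changes there are strongly shrunken, with a median standard error of 0.107 over well counted genes beside a maximum of 0.110. The size of change needed for a call in that table was not tested. Its 0 of 10 therefore does not show that the clock genes were unchanged. The median log2 change of the 10 clock genes was 0.20 in aPD-1 v IgG, -0.17 in aPD-1+CD8 v aPD-1, -0.20 in IFNg v IgG and -0.46 in IFNg v aPD-1, beside 0.01, -0.0045, 0.0093 and -0.0041 over all genes tested.

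**Figure D3:**
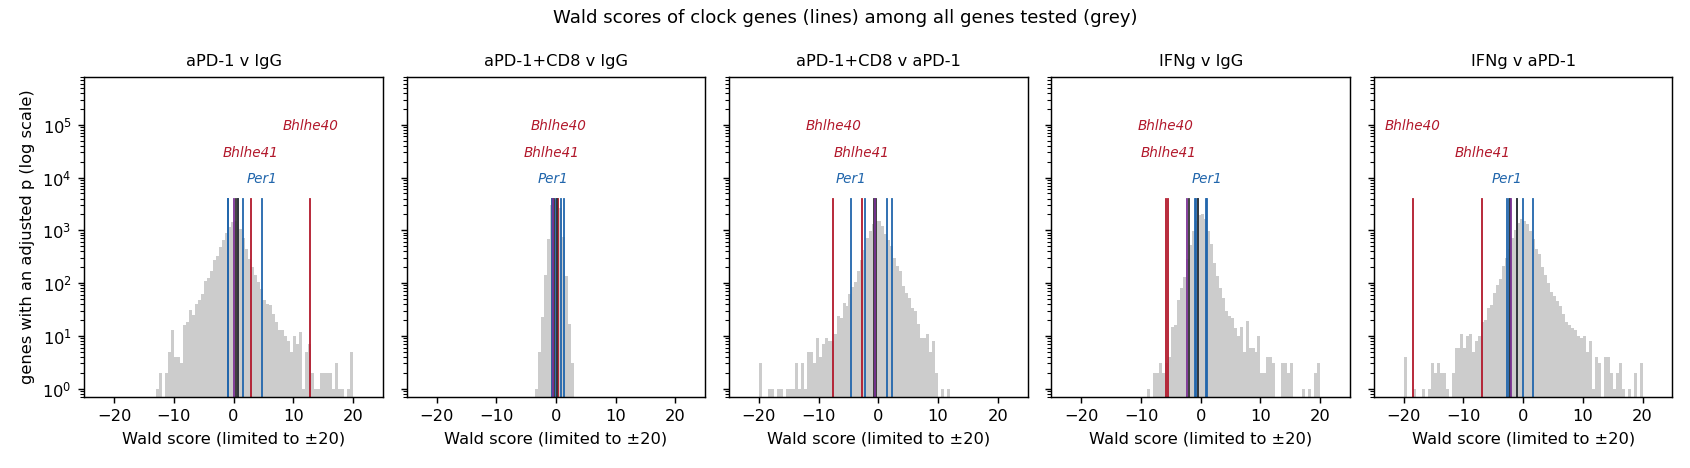
Wald scores (x axis, drawn at ±20 where beyond) of all genes with an adjusted p (grey, number of genes on a log axis) and of the 10 clock genes (lines, coloured by role; Bhlhe40, Bhlhe41 and Per1 are named) in each deposited comparison. Bhlhe40 lies far in the tail at 12.8 in aPD-1 v IgG and -18.5 in IFNg v aPD-1. All 10 lines lie in the bulk in aPD-1+CD8 v IgG, where no gene passed and the scores are strongly shrunken.

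Other genes of the clock loop moved in both directions with PD-1 antibody. Of 8 entries reported, 7 were listed, and in aPD-1 v IgG 1 rose and 3 fell, with a median log2 change of -0.41. Among all genes tested there, 18.5% changed and 8.5% rose. Rorb, an activator at ROR elements, rose by 0.73 ± 0.23 (adjusted p = 0.0122), and Ciart, a repressor of CLOCK and BMAL1, fell by 0.96 ± 0.33 (adjusted p = 0.0246), in the authors' deposited table. Timeless at -0.54 ± 0.18 (adjusted p = 0.0230) and its partner Tipin at -0.68 ± 0.16 (adjusted p = 0.00024) also fell in the authors' deposited table. Both act at replication forks, and their role in the mammalian clock is less settled.

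Against aPD-1, aPD-1+CD8 had Timeless and Tipin higher and Rorb lower, 2 and 1 of 7, with a median of 0.30. Rorb was at -0.95 ± 0.23 (adjusted p = 0.00070) and Ciart at 0.92 ± 0.38 (adjusted p = 0.0909) in the authors' deposited table. Nr1d1 (REV-ERB-alpha), the close relative of Nr1d2, was at -0.41 ± 0.17 (adjusted p = 0.0813) in aPD-1 v IgG and at -0.40 ± 0.13 (adjusted p = 0.0615) in IFNg v IgG, without passing, in the authors' deposited tables. Arntl2 at 0.24 ± 0.22 and Rora at 0.50 ± 0.41 did not pass with aPD-1 against IgG in the authors' deposited table. Of 7 tested in IFNg v IgG 0 passed, while in IFNg v aPD-1 Rorb alone of 7 did, at -0.80 ± 0.28 (adjusted p = 0.0317) in the authors' deposited table. Among all genes tested, 14.8% passed in aPD-1+CD8 v aPD-1, 4.1% in IFNg v IgG and 15.5% in IFNg v aPD-1.

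**Figure D4:**
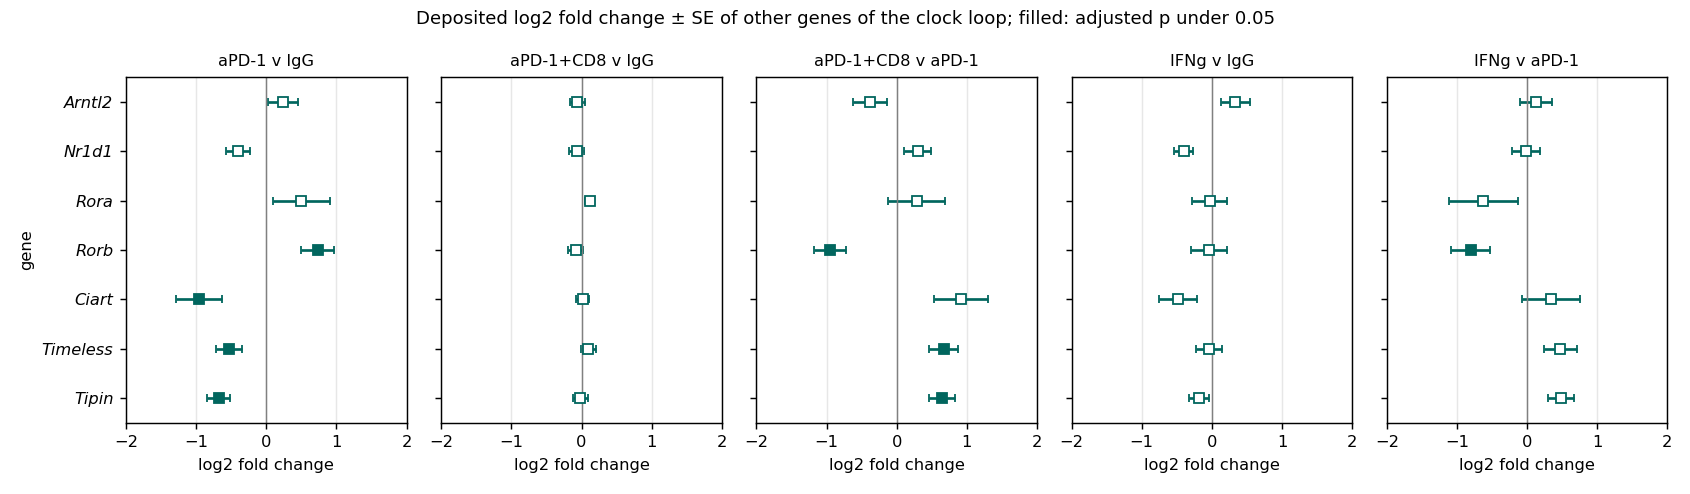
Log2 fold change (x axis) with its standard error (bars) of 7 further clock loop genes (y axis) in the 5 deposited comparisons, first named group over the second. Filled squares passed an adjusted p of 0.05: Rorb is at 0.73 in aPD-1 v IgG and at -0.95 in aPD-1+CD8 v aPD-1, and Tipin at -0.68 and 0.64.

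Few of the enzymes and cofactors that set the stability of clock proteins passed. Of 19 genes reported, among them the casein kinases Csnk1d and Csnk1e, 1 fell in aPD-1 v IgG and 0 rose, where 18.5% of all genes tested changed. It was Prkaa2, a catalytic subunit of AMP-activated kinase, at -1.46 ± 0.34 (adjusted p = 0.00023) in the authors' deposited table. It was higher with aPD-1+CD8 than with aPD-1, at 1.32 ± 0.37 (adjusted p = 0.0040) in the authors' deposited table, as 1 of 19. In both IFNg comparisons 0 of 19 passed. The shares over all genes tested were 14.8% in aPD-1+CD8 v aPD-1, 4.1% in IFNg v IgG and 15.5% in IFNg v aPD-1.

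Output genes, which clock factors drive through E-boxes, D-boxes or ROR elements, moved in both directions with PD-1 antibody. In aPD-1 v IgG 3 of 16 tested rose, namely Hlf, Nfil3 and Coq10b, and 3 fell, namely Nampt, Klf9 and Ccrn4l, with a median log2 change of 0.30. The D-box activator Hlf was at 1.46 ± 0.39 (adjusted p = 0.0017), the D-box repressor Nfil3 at 1.18 ± 0.31 (adjusted p = 0.0018) and Coq10b at 0.68 ± 0.19 (adjusted p = 0.0025) in the authors' deposited table. With IFNg v IgG 2 of 15 rose and 0 fell (median 0.07): Nampt, an enzyme of NAD synthesis, at 0.50 ± 0.14 (adjusted p = 0.0147), and Pnp at 0.88 ± 0.25 (adjusted p = 0.0153), in the authors' deposited table. For aPD-1+CD8 v aPD-1, Klf9 was higher, at 0.75 ± 0.22, and Coq10b lower, at -0.71 ± 0.20, of 16 tested in the authors' deposited table. Between IFNg and aPD-1, Nampt at 0.91 ± 0.18 and Ccrn4l at 1.24 ± 0.26 were higher and Tef, a D-box activator, at -0.72 ± 0.24 was lower, of 16 tested in the authors' deposited table. Over all genes tested, 18.5% changed in aPD-1 v IgG and 14.8% in aPD-1+CD8 v aPD-1. The share was 4.1% in IFNg v IgG and 15.5% in IFNg v aPD-1.

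Genes of the pathways known to feed Per1 and Bhlhe40 are given beside them, and their part in the change of either was not tested. In the CREB and serum list 10 of 20 rose and 1 fell with aPD-1 over IgG, with a median log2 change of 0.77. The cAMP phosphodiesterase Pde4b was at 4.31 ± 0.17, Nr4a2, an orphan nuclear receptor, at 3.09 ± 0.15 and the AP-1 gene Junb at 2.30 ± 0.15 in the authors' deposited table (adjusted p of 1.3e-48 or less). Against aPD-1, aPD-1+CD8 had 9 of 20 lower and 1 higher (median -0.57), with Pde4b at -4.05 ± 0.19, Nr4a2 at -3.02 ± 0.24 and Junb at -2.06 ± 0.18 in the authors' deposited table. IFNg against IgG gave 2 of 20 higher, Crem at 1.30 ± 0.27 and Junb at 0.55 ± 0.15, and 1 lower, Dclk1 at -0.55 ± 0.16, in the authors' deposited table (median 0.16). Between IFNg and aPD-1 8 were lower and 1 higher (median -0.58), with Pde4b at -4.51 ± 0.20, the cAMP-induced kinase Sik1 at -2.43 ± 0.21 and Pde4d at -2.26 ± 0.21 in the authors' deposited table. The shares of all genes tested that changed were 18.5% in aPD-1 v IgG and 14.8% in aPD-1+CD8 v aPD-1. For IFNg they were 4.1% against IgG and 15.5% against aPD-1.

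The glucocorticoid list, which contains Per1 itself, was mixed. In aPD-1 v IgG 4 of 11 rose, Per1 among them, and 2 fell, with a median log2 change of 0.07. Errfi1, a brake on EGF receptors, was at 1.21 ± 0.23 (adjusted p = 5.2e-06) and the MAP kinase phosphatase Dusp1 at 1.01 ± 0.20 (adjusted p = 9.6e-06) in the authors' deposited table. With aPD-1+CD8 v aPD-1 4 of 11 were lower and 2 higher (median -0.16), with Errfi1 at -1.37 ± 0.28 and the metallothionein Mt2 at -0.998 ± 0.213 in the authors' deposited table. Of 10 tested in IFNg v IgG 1 fell, Tsc22d3 (GILZ), a standard glucocorticoid target, at -0.60 ± 0.16 (adjusted p = 0.0085) in the authors' deposited table. Between IFNg and aPD-1, Tsc22d3 at -0.72 ± 0.19 and Errfi1 at -1.04 ± 0.27 were lower, and Nr3c1, which encodes the glucocorticoid receptor, at 0.40 ± 0.14 was higher, of 11 tested in the authors' deposited table. Over all genes tested, 18.5% changed in aPD-1 v IgG and 14.8% in aPD-1+CD8 v aPD-1. With IFNg, 4.1% changed against IgG and 15.5% against aPD-1.

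Hypoxia genes that passed rose in aPD-1 v IgG and were lower in the other 3 comparisons with calls, which share aPD-1 or IgG samples with it. The aPD-1 samples come first in aPD-1 v IgG and second in aPD-1+CD8 v aPD-1 and IFNg v aPD-1. Opposite signs between these are therefore partly built in. In aPD-1 v IgG 8 of 14 tested rose and 0 fell (median log2 change 0.67), with the vascular growth factor Vegfa at 1.73 ± 0.15, Hif1a, the oxygen-regulated subunit of HIF-1, at 0.92 ± 0.14 and Ndrg1 at 0.92 ± 0.15 in the authors' deposited table. In aPD-1+CD8 v aPD-1 4 of 14 were lower and 0 higher (median -0.64), with Vegfa at -1.81 ± 0.18 and the glycolytic genes Pgk1 at -0.82 ± 0.21 and Ldha at -0.75 ± 0.19 in the authors' deposited table. With IFNg v IgG 2 of 13 fell and 0 rose (median -0.28): Vegfa at -0.82 ± 0.12, and Pdk1, a HIF target that holds back pyruvate oxidation, at -0.61 ± 0.18, in the authors' deposited table. Between IFNg and aPD-1 10 of 14 were lower and 0 higher (median -0.92), with Vegfa at -2.58 ± 0.18, P4ha2 at -1.70 ± 0.28 and Bnip3 at -1.59 ± 0.26 in the authors' deposited table. All genes tested gave 8.5% higher in aPD-1 v IgG and 6.94% lower in aPD-1+CD8 v aPD-1. They gave 1.38% lower in IFNg v IgG and 7.13% lower in IFNg v aPD-1.

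Other repressors and partners of the basic helix-loop-helix class gave 3 of 13 higher and 0 lower in aPD-1 v IgG. Hes1, a Notch target and repressor, was at 0.61 ± 0.17 (adjusted p = 0.0028), Id3, which blocks DNA binding of such factors, at 2.19 ± 0.36 (adjusted p = 5.5e-08) and Mxd4, a MYC antagonist, at 1.15 ± 0.36 (adjusted p = 0.0115) in the authors' deposited table. Between aPD-1+CD8 and aPD-1, Hes1 at -0.54 ± 0.20, Id3 at -2.67 ± 0.40 and Mxd4 at -1.03 ± 0.38 were lower, 3 of 13 tested in the authors' deposited table. Between IFNg and aPD-1, 3 of 13 were lower: Hes1 at -1.91 ± 0.48, Id3 at -1.39 ± 0.40 and Mxd4 at -1.79 ± 0.44 in the authors' deposited table. Hey1 alone of 13 fell in IFNg v IgG, at -1.02 ± 0.28 (adjusted p = 0.0098), in the authors' deposited table. Over all genes tested, 18.5% changed in aPD-1 v IgG and 14.8% in aPD-1+CD8 v aPD-1. The share was 15.5% in IFNg v aPD-1 and 4.1% in IFNg v IgG.

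Of the STAT and TNF input genes reported here, which leave out 1 gene of that list, 8 were listed in aPD-1 v IgG and 7 tested. All 7 tested rose there (median log2 change 1.92), and Il6 had no adjusted p. Socs3, the feedback inhibitor of JAK signalling, was at 4.47 ± 0.19, the cytokine gene Lif at 3.59 ± 0.20 and Stat3 at 1.92 ± 0.15 in the authors' deposited table. In aPD-1+CD8 v aPD-1 5 of the 7 were lower and 0 higher (median -1.90), with Socs3 at -4.07 ± 0.20, Il11 at -4.21 ± 0.28 and Lif at -4.07 ± 0.23 in the authors' deposited table. With IFNg v IgG 4 of the 7 rose and 0 fell (median 0.77), led by the interferon-gamma target Irf1 at 2.48 ± 0.14, with Socs3 at 1.16 ± 0.26 and Nfkbia at 0.77 ± 0.17, in the authors' deposited table. Between IFNg and aPD-1, 4 of the 7 were lower and 1 higher (median -1.56), with Il11 at -4.58 ± 0.30, Lif at -2.60 ± 0.19 and Irf1 at 2.17 ± 0.16 in the authors' deposited table. Among all genes tested, 18.5% changed and 8.5% rose in aPD-1 v IgG, and 14.8% changed in aPD-1+CD8 v aPD-1. With IFNg, the shares were 4.1% against IgG and 15.5% against aPD-1.

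The genes most like each responsive member were sought by the distance between their 5 deposited log2 fold changes, over genes whose mean count reached 100 in all 5 tables (5705 beside the member). Nearest to Bhlhe40 were Fbln2, a matrix fibulin, at a distance of 0.39, Vegfa, the vascular growth factor, at 0.68 and Col3a1, a fibrillar collagen, at 0.72, with a median of 4.32 over all of them. Nearest to Bhlhe41 were Col6a2 at 0.12, Arrdc3 at 0.33 and Col6a1 at 0.44, of which Col6a1 and Col6a2 encode chains of collagen VI, with a median of 2.57. Nearest to Per1 were Ap3s1 at 0.04, Tbc1d8b at 0.06 and Foxf1 at 0.08, with a median of 1.40. The fold changes of the 5 tables share samples and are not equally shrunken, so the distance is a description only.

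Only part of the fibroblast markers moved with Bhlhe40 and Per1 in aPD-1 v IgG and aPD-1+CD8 v aPD-1. The summed solved level of the 5 fibroblast markers was 2272 in IgG, 5996 in aPD-1, 2100 in aPD-1+CD8 and 2383 in IFNg. In aPD-1 v IgG 3 of the 5 rose, Col1a1, Dcn and Pdgfra, and 0 fell, and in aPD-1+CD8 v aPD-1 Dcn and Pdgfra were lower. Col1a1 did not pass there (-1.04 ± 0.40, adjusted p = 0.0568). Pdgfrb leaned the other way without passing, at -0.28 ± 0.21 (adjusted p = 0.430) and 0.22 ± 0.38 (adjusted p = 0.799) in the same 2 comparisons. Col1a2 was scarce, with a mean count of 13.5 in aPD-1 v IgG beside 1606 for Col1a1 and 1764 for Dcn, which carry most of the sum there. Under IFNg v IgG, where Bhlhe40 and Bhlhe41 fell, Dcn rose and Col1a1 fell, and in IFNg v aPD-1 3 of 5 were lower. The part of these markers in the results on the clock genes was not tested. In bulk RNA, fewer cells of a type and less RNA per cell cannot be told apart.

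Markers of other cells were low. The T cell markers summed to a mean normalized count of between 1.07, where 3 of the 5 were listed, and 2.44, where all 5 were, in the authors' deposited tables, with 0 called in any. Of 5 macrophage markers 4 were listed, with 0 called, and their summed solved level was 137 in IgG, 125 in aPD-1, 129 in aPD-1+CD8 and 397 in IFNg. The IFNg sum rests on Csf1r, whose p is left empty in the authors' deposited tables of IFNg, DESeq2's sign of an outlying count. Of 3 endothelial markers Cdh5 alone passed, higher in aPD-1 v IgG and lower in aPD-1+CD8 v aPD-1, and Pecam1 and Kdr had mean counts between 0.213 and 1.18 in the authors' deposited tables. The keratins and adhesion genes of epithelium had few counts in these colon carcinoma cultures. Krt8, Krt18, Krt19, Epcam and Cdh1 summed to at most 9.12 in any of the authors' deposited tables. Krt19 alone passed, lower in aPD-1 v IgG. The libraries were made by exome capture, and how well it takes up each marker was not tested. A low count of a marker, Col1a2 included, therefore does not show that its cells were absent.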

How the data were processed

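RNA of 12 samples in 4 groups of 3 had been sequenced from exome-capture libraries made from 250 ng of total RNA, per the labels' protocols. The 5 tables are the authors' own DESeq2 comparisons on mm9, per the submitters' processing notes. Aligner, counter, annotation and the DESeq2 version: not given in the sources used here. Their columns, per the file headers, are a mean normalized count (a signal averaged by the authors over both groups), the log2 fold change and its error, the Wald score, and p-values before and after adjustment. They hold 0 columns of single samples. Summed mean counts, the only measure of depth, ranged from 10292941 to 11590748, and intervals are the log2 change ± the normal 95% quantile times its standard error.

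Calls were taken as deposited, at an adjusted p under 0.05. Tables were put on 1 scale by the median ratio of mean counts over 5706 genes with at least 100 in every table (factors 1 to 1.15), and group means were solved from them. Scaling had been planned as the alternative and was made the reported setting after the unequal scales were seen. The computations used Python 3.11.15 with pandas 2.3.3, numpy 2.4.6 and scipy 1.17.1, and were tested on simulated data. The members and the 8 gene lists were chosen with earlier results of these data known, and 3 genes of the lists are not reported here and stay out of the list counts. Named genes were all members, the other loop genes, the 3 called genes with the smallest adjusted p of each further list and comparison, and the 3 nearest genes of the 3 members with the smallest adjusted p. Nampt, Klf9 and Ccrn4l in aPD-1 v IgG and the marker genes fall outside that rule and were named after their values were seen.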

Additional observations from a re-analysis of the deposited data

How the results depend on the processing

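Over the 5 comparisons and 6 alternative thresholds, adjustments, nulls and centrings, 27 of 30 counts of changed clock genes stayed within 1.5 times. In aPD-1+CD8 v IgG the count was 0 under every setting, where the smallest adjusted p of any gene was 0.9998 with DESeq2. Requiring a log2 change of at least 1 left 1 gene in aPD-1 v IgG, 1 in aPD-1+CD8 v aPD-1 and 1 in IFNg v IgG. Of 350 values of single clock genes under an alternative, 333 kept direction and side of the threshold or moved by less than 1 standard error. Another 10 lost their call, 1 gained one (Per1 in IFNg v aPD-1) and 5 moved by more. The last 1 turned: Cry2 in IFNg v aPD-1 had a log2 ratio of solved levels of 0.0041. Much of this was fixed in advance. Only centring and the solved levels alter the log2 value, and a stricter threshold cannot add a call. These shares are therefore no measure of robustness. The lost calls were those of Bhlhe41 and Per1 in aPD-1 v IgG and aPD-1+CD8 v aPD-1 and of Bhlhe40 in IFNg v IgG. All of these calls were lost at a minimum log2 change of 1. Those of Bhlhe41 were also lost at an adjusted p under 0.01 and with the empirical null. Its call in aPD-1+CD8 v aPD-1 was lost as well when adjusted over every gene with a p-value. Without a common scale of the tables, 44 of 50 directions of solved levels matched the deposited ones, against 49 with it.

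No paired analysis was possible because the tables hold 0 columns of single samples and the labels give no replicate numbers. Leaving out a library in turn was not run, since it needs such columns. Low counts limited Per2, with means under 10, and their cause was not tested.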
